A study of Homo sapiens with 6 samples.

Results

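Metallothioneins are small, cysteine-rich proteins of the cytosol and nucleus that bind zinc and copper ions and also trap cadmium. In human cells the genes lie in one cluster on the long arm of chromosome 16, and most are copies of a common type 1 gene, so their transcripts are close in sequence. They are known as genes that switch on when free zinc rises, through the zinc-sensing transcription factor MTF1, and many are also induced by glucocorticoids and by oxidants that release zinc from proteins. Their cysteines react with hydrogen peroxide, which is why they are often read as part of a cell's defence against oxidative stress.

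The metallothioneins described here were taken by gene symbol from a list of 9 (MT1A, MT1B, MT1E, MT1F, MT1G, MT1H, MT1M, MT1X and MT2A), among 14884 genes that could be named on the arrays. Of these 9, 8 had a named probe set and each had 1, while MT1A had none and is not analysed here. The arrays compared 3 samples of NR1D1 KO cells with 3 samples of control cells of the line MDA-MB-231, an established human breast carcinoma line, on whole-transcript GeneChip arrays. NR1D1 encodes REV-ERBα, a heme-binding nuclear receptor that represses clock genes. Cells of both groups, control cells included, had been kept for 72 h with 200 µM H2O2, so no array shows cells without peroxide. How the knockout was made, and whether it is 1 clone, is not given in the labels, which call the arrays biological replicates without saying what was separate, so a p-value here reflects only how far these arrays scatter, which may be technical. No probe set carried NR1D1 as its only symbol, so the targeted transcript could not be checked.

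The values were deposited on what reads as a log2 scale, with array medians of 5.18 to 5.22. Arrays correlated at 0.9907 to 0.9934 within groups and at 0.9824 to 0.9853 between them, across the named genes. Markers of the line were checked first. All 6 measured genes of a mesenchymal or basal-like carcinoma list, among them VIM and AXL, had mean signals at percentile 94.2 of named genes or higher, while the estrogen receptor gene ESR1 stood at percentile 30.4 and the progesterone receptor gene PGR at percentile 11.3. Other genes of that luminal list were brighter, with KRT19 at percentile 86.8 and EPCAM at 73.5, and the median of its 8 measured genes was 49.3. Of other cell types, 3 of 7 leukocyte, 2 of 6 fibroblast and 3 of 5 endothelial markers were measured, and their lists' median percentiles were 23.1, 17.6 and 28.1. The leukocyte gene PTPRC had no named probe set, and CD68, which tumour lines can also express, stood at percentile 99.2. Some markers differed between the groups. Over all 14884 genes 4.74% were higher and 4.74% lower in knockout cells at a limma adjusted p under 0.05. VIM was higher in knockout cells by 0.34 on the log2 scale (limma adjusted p = 0.0337) and CD44 lower (-0.35, adjusted p = 0.0324). Of the other markers 2 of 8 luminal genes were higher and 2 lower, CD68 was lower and the endothelial gene KDR higher. Their part in the metallothionein values was not tested.

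Promoters are shown because the metal response element is the sequence through which zinc acts on this family. The 250 bases before the start of 4 of the 9 genes are given from RefSeq (GRCh38.p14, plus strand of chromosome 16), with the core of the metal response element, the site that MTF1 binds, in capitals. The core was searched as TGCACNC and TGCGCNC on both strands, and capitals mark every match.
MT2A, chr16:56608334-56608583: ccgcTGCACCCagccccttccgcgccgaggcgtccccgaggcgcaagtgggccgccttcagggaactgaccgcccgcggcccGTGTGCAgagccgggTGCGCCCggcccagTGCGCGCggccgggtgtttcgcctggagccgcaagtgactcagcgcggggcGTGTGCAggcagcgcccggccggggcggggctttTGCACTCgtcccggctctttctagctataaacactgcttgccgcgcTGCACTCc
MT1X, chr16:56682220-56682469: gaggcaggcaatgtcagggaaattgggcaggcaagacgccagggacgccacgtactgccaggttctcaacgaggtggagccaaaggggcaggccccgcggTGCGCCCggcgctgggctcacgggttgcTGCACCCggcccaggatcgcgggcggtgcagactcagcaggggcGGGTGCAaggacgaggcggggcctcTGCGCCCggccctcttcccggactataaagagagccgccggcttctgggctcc
MT1H, chr16:56669564-56669813: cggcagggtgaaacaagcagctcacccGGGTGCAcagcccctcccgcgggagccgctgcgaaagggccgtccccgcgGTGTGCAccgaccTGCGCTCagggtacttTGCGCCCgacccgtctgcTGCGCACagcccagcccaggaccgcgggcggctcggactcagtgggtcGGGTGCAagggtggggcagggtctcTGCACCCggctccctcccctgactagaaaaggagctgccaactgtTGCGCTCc
MT1B, chr16:56651636-56651885: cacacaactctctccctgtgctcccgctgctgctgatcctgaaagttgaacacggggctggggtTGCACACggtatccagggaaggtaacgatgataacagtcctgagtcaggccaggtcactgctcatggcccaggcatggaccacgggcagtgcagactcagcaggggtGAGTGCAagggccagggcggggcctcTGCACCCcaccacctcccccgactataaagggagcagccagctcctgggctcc
MT2A held 7 matches, 5 on the plus and 2 on the minus strand. MT1X held 4, with 3 on the plus and 1 on the minus strand, MT1H held 8, with 5 and 3, and MT1B held 3, with 2 and 1. None of these matches overlapped another. Of 35116 human promoters of the same length 24.8% held at least 1 match, 1.58% at least 3 and 0.37% at least 4. A match describes the letters only and does not show that MTF1 was bound.

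None of the 8 measured metallothionein genes differed between NR1D1 KO and control cells past an adjusted p of 0.05, in limma with Benjamini-Hochberg adjustment over all named genes. Over all 14884 genes the same test called 9.49%, or 4.74% higher and 4.74% lower in knockout cells, a share that would give 0.759 of 8 genes. At an unadjusted p under 0.05 there was 1 metallothionein, MT2A, beside 22.8% of all genes. The direction was mixed, with 3 genes above 0 and 5 below, and the median log2 change of the family was -0.018, against 0.0039 over all genes. The changes ranged from -0.36 for MT1H to 0.19 for MT2A, and the adjusted p from 0.216 to 0.993.

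MT2A, which encodes the type 2 protein, measured 9.39, 9.29 and 9.40 on the NR1D1 KO arrays, against 9.07, 9.24 and 9.19 on the control arrays (log2 values). All 3 knockout values lay above all 3 control values, by a narrow margin at the closest pair. It was the only metallothionein of the 8 whose groups did not overlap, where 28.7% of all genes did not. MT2A averaged 9.36 ± 0.058 in knockout and 9.17 ± 0.087 in control cells (SD, n = 3 each), a log2 change of 0.19 with a 95% interval of 0.0015 to 0.38. That is 1.14-fold higher, with an interval of 1.001 to 1.30, and the limma adjusted p was 0.216. Its within-group SD of 0.074 was at percentile 17.8 of all genes, and close to the median SD of 0.0813 among the 892 genes within 0.5 of its signal (log2). In 15 other fits the log2 change of MT2A stayed between 0.14 and 0.23, and the adjusted p between 0.09 and 0.463.

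MT1X, a type 1 gene that is widely expressed, measured 8.59, 8.82 and 8.51 on the NR1D1 KO arrays, against 8.67, 9.31 and 8.61 on the control arrays (log2 values). The groups overlapped, and control replicate 2 stood well above the other 5 arrays. MT1X averaged 8.64 ± 0.16 in knockout and 8.86 ± 0.39 in control cells (SD, n = 3 each), a log2 change of -0.22 with a 95% interval of -0.64 to 0.20 (limma adjusted p = 0.536). Without control replicate 2 the change was -0.00056, so the negative value rested on that array. The spread was large for a bright transcript: the within-group SD of 0.296 was at percentile 95.7 of all genes, and the brightest 10% of genes had a median SD of 0.0806.

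MT2A and MT1X lay on opposite sides of 0, which was followed within each array as the MT2A value minus the MT1X value, a comparison chosen after the values were seen. It was 0.793, 0.472 and 0.892 on the NR1D1 KO arrays, against 0.397, -0.0699 and 0.584 on the control arrays (log2). The knockout value of replicate 2 fell within the control range. The means were 0.719 ± 0.219 in knockout and 0.304 ± 0.337 in control cells (SD, n = 3 each), and they differed by 0.415 with an exact two-sided permutation p of 0.2, where the smallest p that 3 against 3 arrays allow is 0.1. Without control replicate 2 the difference was 0.229, and with any other array left out it lay between 0.329 and 0.556.

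MT1F, another type 1 gene, measured 7.41, 6.88 and 6.98 on the NR1D1 KO arrays, against 6.80, 7.05 and 6.86 on the control arrays (log2 values). Knockout replicate 1 stood above the other 5 arrays, which intermingled. The log2 change was 0.19 with a 95% interval of -0.14 to 0.52 (limma adjusted p = 0.505), and it was 0.027 without that array. MT1E measured 6.59, 6.71 and 6.60 on the NR1D1 KO arrays, against 6.90, 6.63 and 6.23 on the control arrays. Here the knockout arrays lay close together, with an SD of 0.065, inside a control range of 0.674. The log2 change of MT1E was 0.043 with a 95% interval of -0.31 to 0.40 (adjusted p = 0.914), and it was -0.14 without control replicate 3 and 0.20 without control replicate 1.

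**Figure D1:**
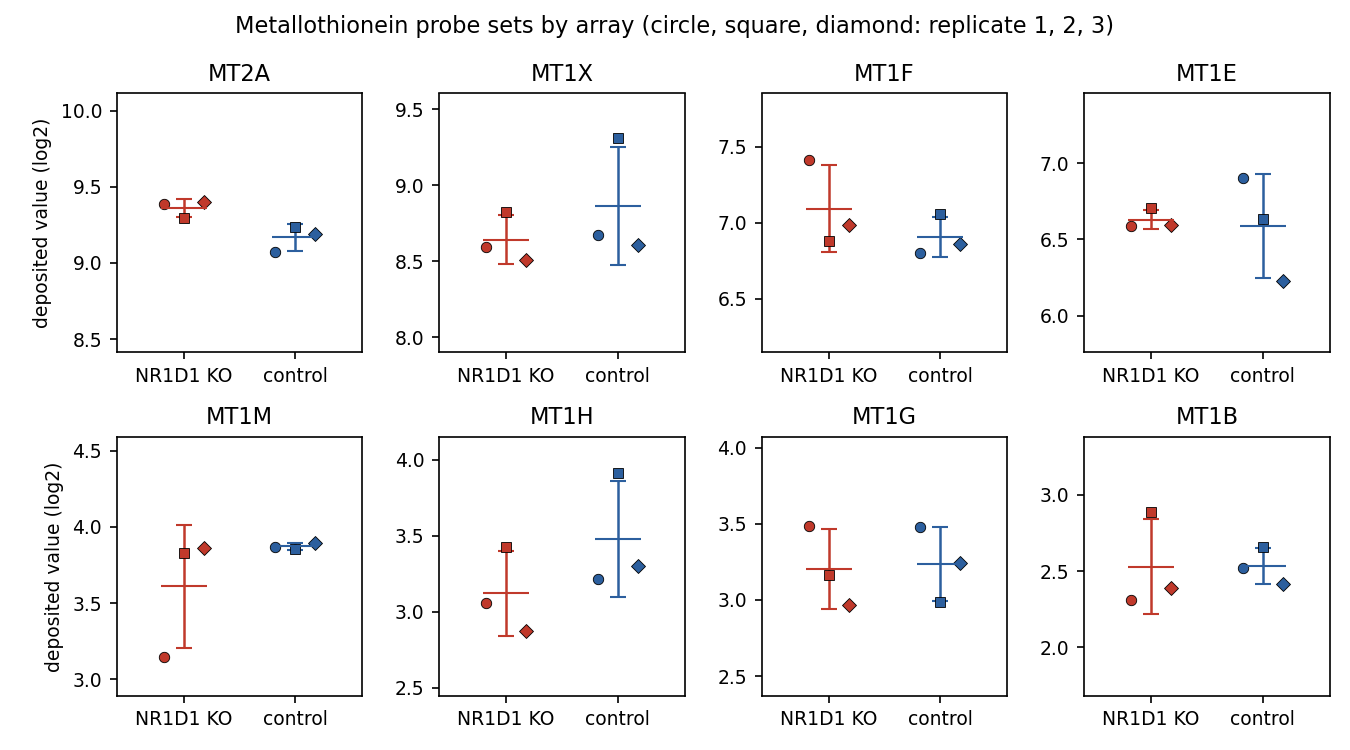
Deposited log2 value of each metallothionein probe set on each array, NR1D1 KO in red on the left and control in blue on the right, with the mean and SD of 3 arrays and the same axis span in every panel. MT2A is the one gene of the 8 whose groups do not overlap, and single arrays stand apart in MT1X (control replicate 2), MT1F and MT1M (knockout replicate 1).

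The remaining genes, MT1M, MT1H, MT1G and MT1B, had mean signals between percentiles 1.94 and 8.7 of named genes. No detection calls were at hand, so whether these dim probe sets read any transcript is not known. Near the floor of an array a change comes out too small. Signals of different probe sets depend on their probes and do not rank the transcripts of the family.

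MT1M measured 3.15, 3.83 and 3.86 on the NR1D1 KO arrays, against 3.87, 3.85 and 3.90 on the control arrays (log2 values). The control arrays were nearly equal. Knockout replicate 1 lay far below them, replicate 2 just below and replicate 3 among them. The log2 change was -0.26 with a 95% interval of -0.67 to 0.15 (limma adjusted p = 0.445), and it was -0.029 without knockout replicate 1. MT1H measured 3.06, 3.43 and 2.88 on the NR1D1 KO arrays, against 3.21, 3.91 and 3.30 on the control arrays. Its change of -0.36 (95% interval -0.82 to 0.11, adjusted p = 0.353) was the largest of the 8 in size, and was -0.14 without control replicate 2.

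MT1G, which is often silenced in tumours, measured 3.49, 3.16 and 2.97 on the NR1D1 KO arrays, against 3.48, 2.99 and 3.24 on the control arrays (log2 values). Both groups covered nearly the same range. The log2 change was -0.032 with a 95% interval of -0.40 to 0.34 (limma adjusted p = 0.935). MT1B measured 2.31, 2.89 and 2.39 on the NR1D1 KO arrays, against 2.52, 2.66 and 2.42 on the control arrays. The mean difference of MT1B was -0.0034 (95% interval -0.35 to 0.35, adjusted p = 0.993), with the control values inside the range of the knockout values.

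How large a change these arrays leave room for can be read from the intervals. For the brighter genes MT2A, MT1X, MT1F and MT1E the 95% intervals, each taken alone, span 1.001 to 1.30, 0.641 to 1.15, 0.905 to 1.43 and 0.804 to 1.32 as the fold of NR1D1 KO over control. A 2-fold change of any of these signals, up or down, lies outside its interval. For MT1H the interval runs from 0.565 to 1.08, and for MT1M from 0.63 to 1.11. The metallothioneins as a family varied more between replicates than most genes, with a median within-group SD of 0.249 against 0.125 over all genes. Of the 8, 7 had an SD at percentile 87.0 or higher, from MT1F to MT1H at percentile 97.4. Dim probe sets scatter more in general, so each was also set beside the genes within 0.5 of its own mean signal (log2). There MT1X had a larger SD than 99.6% of 1381 genes, MT1E than 96.5% of 2765 and MT1F than 95.4% of 2604, while MT1B, MT1G, MT1M and MT1H exceeded 67.3% to 86.6% and MT2A 42.3%.

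**Figure D2:**
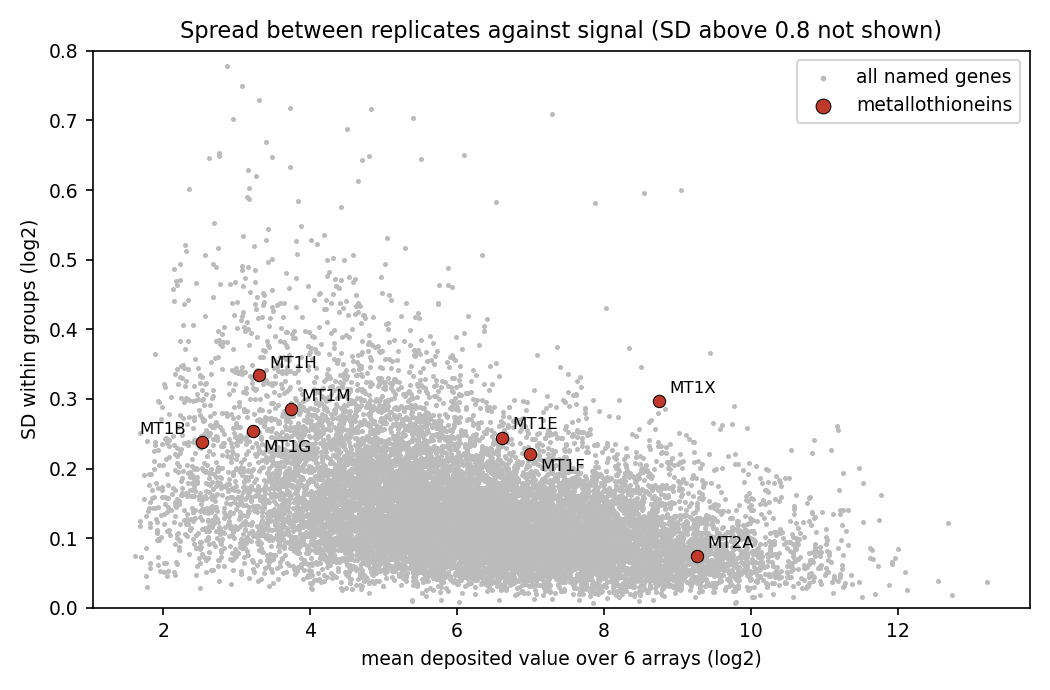
Within-group SD against the mean deposited value over 6 arrays (both log2) for all named genes in grey and the 8 metallothioneins in red. MT1X, MT1E and MT1F lie above most genes of similar signal, with SDs of 0.296, 0.244 and 0.221, and MT2A, at 0.074, lies near the middle of genes of its signal.

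Some genes had the same array as the highest of its group. Replicate 2 was the highest of the 3 control arrays in 5 of the 8 metallothioneins and the highest of the 3 NR1D1 KO arrays in 4. It was also the lowest array in 2 of the 8 in each group. Whether these counts differ from an even split over the arrays was not tested, and alike copies may not be separate counts. MT1B, MT1H and MT1X had replicate 2 as the highest array of both groups, MT1G had replicate 1 and MT1M had replicate 3. The mean over the 8 genes was 5.50, 5.63 and 5.45 on the knockout arrays, against 5.57, 5.71 and 5.47 on the control arrays. These means intermingled, and replicate numbers are not stated to pair the samples.

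Outside the list 3 other genes of the family were measured and 0 were called, where 9.49% of all genes were. MT3, a form known from brain, measured 5.66 ± 0.175 in NR1D1 KO and 5.81 ± 0.206 in control cells (log2, SD, n = 3 each, limma adjusted p = 0.546). MT4, known from stratified epithelia, measured 7.14, 7.15 and 6.90 in knockout cells, against 7.20, 7.16 and 7.40 in control cells, with no overlap but a gap far smaller than the spread within groups (log2 change -0.19, adjusted p = 0.351). The transcribed pseudogene MT1L changed by -0.25 (adjusted p = 0.34). None of these 3 passed at an unadjusted p under 0.05, beside 22.8% of all genes. Groups did not overlap in 28.7% of all genes, so MT4 does not stand out by that. Because copies of the family are so alike, a probe set named for one gene may also bind transcripts of another, and the part of such binding in these values was not tested.

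In the order of the chromosome, genes on either side of the cluster were measured too. NUDT21, a factor of messenger RNA 3' end processing on the MT4 side, rose in NR1D1 KO cells, at 10.17, 10.15 and 10.23 against 9.71, 9.70 and 9.72 in control cells, a log2 change of 0.47 (limma adjusted p = 0.00635). OGFOD1, a ribosomal protein hydroxylase next to it, and NUP93, a nuclear pore scaffold gene at the far end beyond MT1X, had knockout values all above the control values, with log2 changes of 0.22 each, at an adjusted p of 0.163 and 0.193. BBS2, between OGFOD1 and MT4, had a log2 change of 0.042. Farther out on the NUDT21 side CES5A and LPCAT2 also had all knockout values above the control values. Their log2 changes were 0.21 each (adjusted p of 0.143 and 0.193), while CES1 between them changed by -0.15 (adjusted p = 0.546). Farther out on the NUP93 side PLLP, a membrane protein gene, and DOK4, an adaptor gene, had all knockout values below the control values. Their log2 changes were -0.35 (adjusted p = 0.115) and -0.16 (adjusted p = 0.366). Of 17 measured neighbours 8 had non-overlapping groups, 5 above and 3 below, where 28.7% of all genes did not overlap. By the test 1 rose and 1 fell, where 9.49% of all genes were called, and the median log2 change was -0.0066. The one that fell was the chemokine gene CX3CL1, at a log2 change of -0.54 (adjusted p = 0.00628). The metallothioneins between these flanks lay on both sides of 0, and whether they differ from the flanks was not tested.

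**Figure D3:**
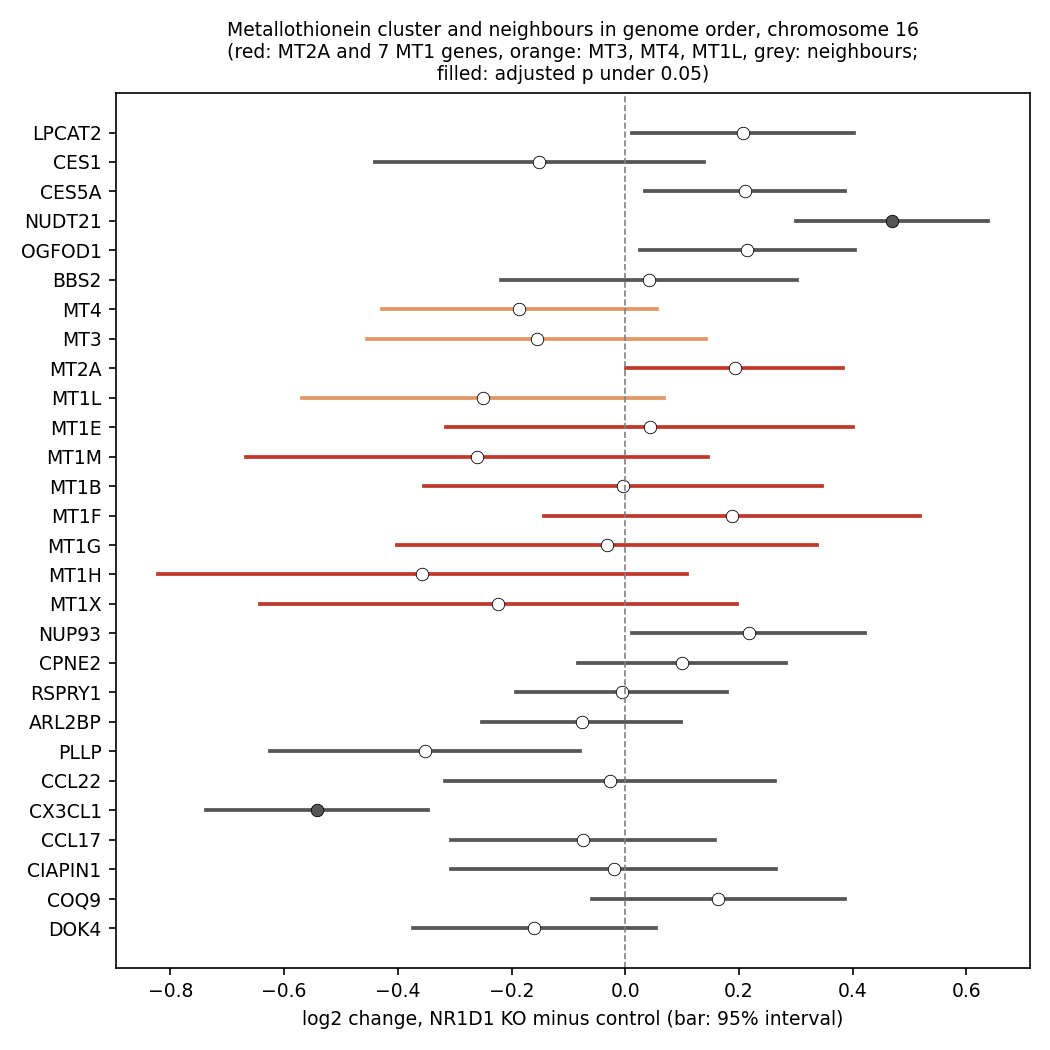
Log2 change of NR1D1 KO minus control with its 95% interval for 28 genes in their order on chromosome 16, with distances not drawn. The 8 metallothioneins in red scatter on both sides of 0 with wide intervals, and the filled points, NUDT21 and CX3CL1, are the 2 neighbours past an adjusted p of 0.05.

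MTF1, the transcription factor that senses zinc and drives these genes, measured 8.68, 8.34 and 8.33 in NR1D1 KO cells, against 8.44, 8.19 and 8.36 in control cells (log2 values). The groups overlapped, and the log2 change was 0.12 with a 95% interval of -0.16 to 0.39 (limma adjusted p = 0.637). It was -0.00098 without knockout replicate 1. None of 10 zinc exporter genes and none of 14 zinc importer genes had a named probe set, so SLC30A1, the exporter that MTF1 also drives, is not analysed here.

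A list of 16 genes that respond to metals, oxidants or unfolded protein also held regulators, such as MTF1, MTF2, NFE2L2 and KEAP1. Of the 16 genes 11 were measured. Of these 1 rose and 3 fell, where 9.49% of all genes were called, and the median log2 change was -0.056. TXNRD1, which encodes thioredoxin reductase, measured 9.24, 9.37 and 9.30 in NR1D1 KO cells, against 9.90, 9.81 and 9.97 in control cells, and fell by 0.59 on the log2 scale (limma adjusted p = 0.0036). HSPH1, a heat shock chaperone gene, fell by 0.51 (adjusted p = 0.00793) and HMOX1, of heme breakdown, by 0.37 (adjusted p = 0.0329). BAG3, a co-chaperone gene, rose by 0.34 (adjusted p = 0.0338). HMOX1 missed the threshold without knockout replicate 1 or 2 or any control replicate (adjusted p of 0.0557 to 0.111), and BAG3 without knockout replicate 2 or 3 or any control replicate (0.0911 to 0.11). Beside these calls no metallothionein passed, where the share of all genes called would give 0.759 of 8. Whether the 2 gene groups differ was not tested.

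Genes of copper and iron handling were covered in part. Of 17 copper genes 9 were measured and 0 passed the limma test, where 9.49% of all genes were called. At an unadjusted p under 0.05 there were also 0, beside 22.8% of all genes. The smallest p belonged to the mitochondrial copper chaperone genes SCO1 (log2 change 0.17, adjusted p = 0.265) and SCO2 (-0.18, adjusted p = 0.344). Of 16 iron genes 7 were measured, of which 1 rose and 1 fell. PCBP1, an RNA-binding protein that also carries iron to ferritin, rose by 0.35 (adjusted p = 0.0325), and LCN2, the siderophore-binding lipocalin, fell by 0.77 (adjusted p = 0.0103). PCBP1 missed the threshold without any 1 of the 6 arrays (adjusted p of 0.0515 to 0.104).

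Glucocorticoid-responsive genes, read here because MT2A and MT1X also respond to that hormone, went both ways. Of 12 listed 8 were measured, and 1 rose and 1 fell, where 9.49% of all genes were called. Most changes were upward, with 6 genes above 0 and 2 below, and the median log2 change was 0.155. FKBP5, a co-chaperone of the glucocorticoid receptor, measured 6.91, 7.01 and 6.91 in NR1D1 KO cells, against 6.42, 6.58 and 6.64 in control cells, and rose by 0.40 (limma adjusted p = 0.028). SGK1, a kinase gene, measured 5.20, 5.17 and 5.37 in knockout cells, against 6.01, 5.80 and 6.17 in control cells, and fell by 0.75 (adjusted p = 0.00489). FKBP5 missed the threshold without any 1 of the 6 arrays (adjusted p of 0.0535 to 0.0956). A list of 20 ribosomal protein genes, 11 of them measured, was read as a reference. It leaned upward, with 9 genes above 0 and 2 below, and a median of 0.136 against 0.0039 over all genes. By the test 0 rose and 1 fell, RPL10 (-0.61, adjusted p = 0.00345).

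**Figure D4:**
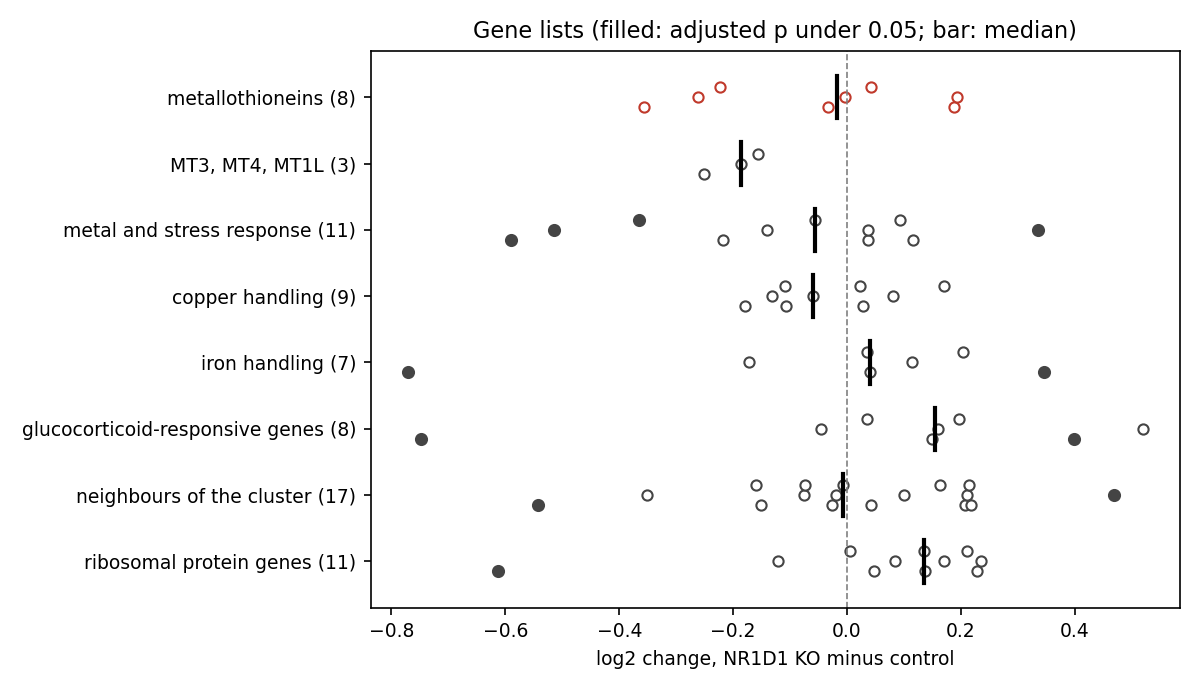
Log2 change of NR1D1 KO minus control for every measured gene of each list (number measured in brackets), with filled points past an adjusted p of 0.05 and a bar at the list median. The 8 metallothioneins hold no filled point and lie between -0.36 and 0.19, while the list of metal and stress response genes reaches from -0.59 to 0.34.

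The genes whose values followed MT2A most closely over the 6 arrays were KRT24, SRRD, SYCP2L, HNRNPA0 and PSPC1, with Pearson r of 0.9989, 0.9958, 0.9852, 0.9851 and 0.9847 and Spearman rho of 1, 0.943, 0.943, 0.943 and 0.886. Leaving out control replicate 1 and knockout replicate 3, the arrays farthest from the MT2A median, r was 0.998, 0.989, 0.974, 0.955 and 0.968. Of 14884 genes, 278 outside the list had an r above 0.9, so an r of that size over 6 arrays does not single out a gene. The 5 were picked as the highest. None of the 5 was called, and their log2 changes ran from 0.137 for PSPC1 to 0.313 for SYCP2L.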

How the data were processed

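The authors deposited 1 table of log2 values per probe set and array, read as log2 from its range of 1.16 to 13.75. Near-equal medians show normalization between arrays, but its method is not given in the sources used here, nor is the summarization. Per the labels' protocols, RNA was amplified and biotin-labelled for whole-transcript arrays. Of 53617 probe sets, 16098 had 1 gene symbol in the platform annotation (all matched by gene ID in a RefSeq table of GRCh38.p14). The other 37519 did not have exactly 1 there and were left out. For genes with several, the probe set with the highest mean was used, leaving 14884 genes without a filter.

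The contrast of 3 NR1D1 KO and 3 control arrays was fitted in R 4.3.3 by limma 3.58.1 (two-sided, moderated by eBayes), with p adjusted by Benjamini-Hochberg over all genes at 0.05. The fit was tested on simulated data. Intervals are limma's 95% intervals and are not adjusted. The number of arrays limits the precision. Named genes are the whole family, MTF1, from each list up to 4 called genes by size of change (2 by smallest p where none was called), and the 5 most like MT2A. CPNE2 and other neighbours appear in a figure only. PTPRC, CD68 and other markers, MT3, OGFOD1, NUP93, BBS2, CES1, CES5A, LPCAT2, PLLP and DOK4 were named after their values were seen. The metallothionein list and the other lists were chosen with earlier results of these data known. The signal window for the spread and the MT2A and MT1X comparison, with its fits without 1 array, were added after seeing the data. Alternatives are given in the closing section.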

Additional observations from a re-analysis of the deposited data

How the results depend on the processing

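No metallothionein passed the threshold in any of the 15 alternative fits or in 11 fits of every named probe set. The 15 fits called 723 to 1953 of all genes or probe sets tested, against 1412 genes in the main fit. The share of the main fit would give 0.759 of 8 genes, so finding none is near it. The alternatives were array weights, a robust prior that follows signal, quantile normalization again, centring on medians, removing the 25% or 50% of genes with the lowest signal (which leaves 4 of the 8 metallothioneins), averaging or separately testing probe sets, the replicate number as a block, and omission of each array. The lowest adjusted p of a metallothionein was 0.09, for MT2A after removal of the lower 50% of genes by signal, where fewer genes are tested.

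Signs near 0 were not stable. MT1B measured 0.0029 with arrays centred on medians and 0.086 with array weights, and with 1 array left out it ranged from -0.183 to 0.105. On leaving out 1 array MT1E ranged from -0.137 to 0.2, MT1G from -0.173 to 0.0887 and MTF1 from -0.00098 to 0.176. MT1F, MT1H, MT1M, MT1X and MT2A kept their sign in every fit that tested them. The count of changed genes, 1412, was 723 to 1049 with 1 array left out, and it was 813 without NR1D1 KO replicate 2, 789 without control replicate 1, 859 without control replicate 2 and 723 without control replicate 3. Of 66 measured genes of the other lists 11 were called, beside 9.49% of all genes. With 1 array left out 7 to 9 of them were called (fewer arrays give less power).

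With the replicate block, which treats same-numbered arrays as paired, 1050 genes and 7 of the listed genes were called, and the lowest adjusted p of a metallothionein was 0.0928, for MT1H. Deviations of same-numbered arrays from their group means correlated at 0.0547, 0.0681 and -0.106. No pairing was visible over all genes, but such values cannot exclude one, and the labels do not state it. With 3 arrays a group, dim signals and similar copies limit what can be read from MT1B, MT1G, MT1H and MT1M.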
